A study of Mus musculus with 4 samples.

Results

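Calreticulin and 9 other proteins that fold or modify secretory proteins in the endoplasmic reticulum (ER) were followed as mRNAs in exosome RNA. The 10 genes are Calr, Canx, Hspa5, Hsp90b1, Pdia3, Pdia4, Pdia6, P4hb, Ppib and Serpinh1, taken by symbol, and all 10 were found among the 42977 genes of the deposited table. The set was selected on the counts and RPKM of these same libraries, with earlier results known, so the differences between groups given below describe the genes and are no independent evidence. Exosomes are small vesicles shed into culture medium, and these came from bone marrow mesenchymal stem cells (MSCs) of male SD rats aged 6 to 8 weeks, used at passage 3 to 4. The 2 MSC-Exo libraries are from cells given DMSO, and the 2 MSCATV-Exo libraries are from cells pretreated with 1 µmol/L atorvastatin (ATV), a statin, which blocks cholesterol synthesis. The labels give 24 h of pretreatment in one place and 48 h in another. The samples are registered under mouse, while the cells, the gene identifiers and the build used for mapping are of rat. Whether the 2 libraries of a group came from different animals or cultures is not stated in the labels. Every SD below therefore measures a spread between libraries that may be technical. The SE and p of the fits made here rest on the same libraries. They draw on a spread shared over many genes, not on a gene's own replicates alone. What the authors' deposited p and q measure is not stated in the sources used here.

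Proteins bound for secretion enter the ER as unfolded chains. Hspa5 (BiP) and Hsp90b1 (GRP94) hold them, calreticulin and its membrane-bound relative calnexin (Canx) bind those that carry monoglucosylated sugars, and protein disulfide isomerases form and reshuffle their disulfide bonds. Collagen, a main product of stromal cells, needs further helpers. P4hb is a disulfide isomerase and also the beta subunit of prolyl 4-hydroxylase, Serpinh1 (HSP47) is a collagen-specific chaperone, and Ppib (cyclophilin B) isomerises proline bonds. When unfolded chains pile up, the unfolded protein response raises many of these genes through the ER stress response element, to which the factor ATF6 binds together with NF-Y. Calnexin protein is also widely used as a marker of cell material that should be absent from exosome preparations, which concerns the protein and not its mRNA.

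The ER stress response element is shown because it is the promoter feature for which this gene group is known. Rat promoters were not used here, so the sequences are the mouse orthologues' from RefSeq (build GRCm38.p6), and all 10 symbols matched a mouse promoter. In the 250 bases before the start of transcription, both strands were searched for CCAAT, 9 bases and CCACG (the element), and for ATTGG, 1 base and CCACG (its second form, element II). CCAAT on one strand reads ATTGG on the other, so the forms differ both in the orientation of that block relative to CCACG and in the length between the blocks. The element was present in 5 of the 10 promoters, against 37 of 32851 promoters in the table (0.113%). Since the element was picked as one known for this gene group, that contrast is no finding of the search. Element II was in 0 of the 10, against 0.0304% of all promoters. The stretches below run 5′ to 3′ on the gene's strand, from 20 bases before the element to 20 bases after it, with both blocks in capitals. They lie at chr8:84847055-84847113 (minus strand, Calr), chr11:50325780-50325838 (minus, Canx), chr2:34772005-34772063 (plus, Hspa5), chr12:17266471-17266529 (plus, Pdia6) and chr10:86705513-86705676 (minus, Hsp90b1).
Calr: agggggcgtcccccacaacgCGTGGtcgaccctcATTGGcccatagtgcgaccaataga
Canx: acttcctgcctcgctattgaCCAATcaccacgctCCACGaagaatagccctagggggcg
Hspa5: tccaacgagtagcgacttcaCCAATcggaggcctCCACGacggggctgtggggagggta
Pdia6: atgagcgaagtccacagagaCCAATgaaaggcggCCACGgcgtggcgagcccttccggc
Hsp90b1: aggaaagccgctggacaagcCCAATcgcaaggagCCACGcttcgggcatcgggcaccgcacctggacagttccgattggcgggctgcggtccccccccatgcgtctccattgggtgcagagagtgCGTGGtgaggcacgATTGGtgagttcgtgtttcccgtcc
The element began 162 bases before the start in Calr, 145 in Canx, 98 in Pdia6 and 65 in Hspa5. Hsp90b1 held 2 copies, at 212 and 107 bases, on opposite strands. In Calr the copy is on the reverse strand. The windows of Pdia3, Pdia4, P4hb, Ppib and Serpinh1 held no match, which says only that these letters are not in that window.

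The gene counts summed to between 5350295 and 5947020 per library, and the 10 genes together took 1925 and 2381 counts in the MSC-Exo pair (replicate 1 first, here and below), against 3304 and 3398 in the MSCATV-Exo pair. RPKM is the authors' unit for levels, reads per kilobase of gene length, scaled to library size, and levels of different genes are compared on it alone. For a measure of reads that need not come from expressed genes, the median of 1188 olfactory receptor genes was taken, which stromal cells should not use. It was 2.47 and 2.36 RPKM in MSC-Exo, against 1.71 and 2.28 in MSCATV-Exo. The median of all protein-coding genes was 4.74 and 4.70 RPKM in MSC-Exo, against 4.12 and 4.54 in MSCATV-Exo. Both medians were lower in both MSCATV-Exo libraries, so the same RPKM is a larger multiple of the olfactory median there. Of 10 MSC markers, Thy1, Eng, Itgb1 and Cxcl12 averaged at least 3 times that olfactory median, as did Col1a1, Col3a1, Fn1, Sparc and Vim of 6 stromal markers, while Col1a2 was listed at 0 in all 4 libraries. The summed MSC marker level was 86.1 and 97.2 RPKM in MSC-Exo, against 78.5 and 99.3 in MSCATV-Exo. Stromal markers summed to 443 and 477 RPKM in MSC-Exo, against 508 and 532 in MSCATV-Exo. Exosome markers (3 of 6, Cd63, Cd81 and Tsg101, passed the same multiple) summed to 43.7 and 41.4 against 45.5 and 56.4 RPKM. Both of these sums were higher in both MSCATV-Exo libraries, the exosome sum narrowly so in replicate 1. Of the stromal markers only Sparc (183 and 200 against 220 and 243 RPKM) and Vim (187 and 202 against 225 and 214) had separate groups. Col1a1, Col3a1 and Fn1 overlapped. Of the exosome markers only Cd81 (6.96 and 6.57 against 8.08 and 7.86 RPKM) was separate. Tsg101 overlapped, at 4.30 and 6.84 against 5.12 and 15.6 RPKM. Leukocyte markers, of which 2 of 9 (Cd74 and Lyz2) passed the same multiple, summed to 45.7 to 50.8 RPKM in MSC-Exo and 34.9 to 40.3 in MSCATV-Exo. Erythroid markers (2 of 5, Hba1 and Hba-a1, passed) summed to 29.2 and 24.0 against 18.5 and 23.0 RPKM. Plasma cell markers (2 of 4, Sdc1 and Mzb1, passed), of a cell type rich in ER chaperones, summed to 22.8 and 37.4 against 15.4 and 27.4 RPKM, with overlapping groups. Endothelial markers (1 of 5, Tie1, passed) and hepatocyte or serum markers (2 of 4, Ttr and Serpina1, passed) also overlapped, from 27.5 to 34.6 and from 21.0 to 25.8 RPKM. The part of these cell types and marker sums in the results was not tested. In vesicle RNA of this kind, fewer vesicles from a source and less of an mRNA per vesicle cannot be told apart.

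Calr was the most abundant of the 10 mRNAs in every library, by a wide margin. Its level was 81.0 and 98.6 RPKM in the MSC-Exo libraries, and 167 and 169.5 RPKM in the MSCATV-Exo libraries. Its mean over the 4 libraries was 129 RPKM, which placed it at rank 48 among 22633 protein-coding genes and at 61.8 times the olfactory receptor median. Hsp90b1 (mean 22.8 RPKM) and Serpinh1 (20.4 RPKM) came next, and their ranges over the libraries overlapped. Both stood clear of the olfactory level, at 10.6 and 9.55 times its median. Serpinh1, from 18.1 to 22.3 RPKM, had the narrowest range of the 10 in ratio and lay wholly above P4hb, from 11.1 to 16.0 RPKM. From P4hb downwards each gene's range overlapped that of the next in order, which was Ppib (12.0 RPKM), Pdia6 (9.82), Hspa5 (7.92), Pdia3 (7.19), Pdia4 (7.15) and Canx (6.75 RPKM). Leaving out a library changed places within this lower group, and exchanged Hsp90b1 and Serpinh1 without MSCATV-Exo replicate 2. Calr stayed first. Canx, Pdia3, Pdia4 and Hspa5 averaged 3.06, 3.27, 3.31 and 3.75 times the olfactory median, and how much of their reads comes from mRNA was not measured. Canx still ranked above 74.7% of protein-coding genes.

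**Figure D1:**
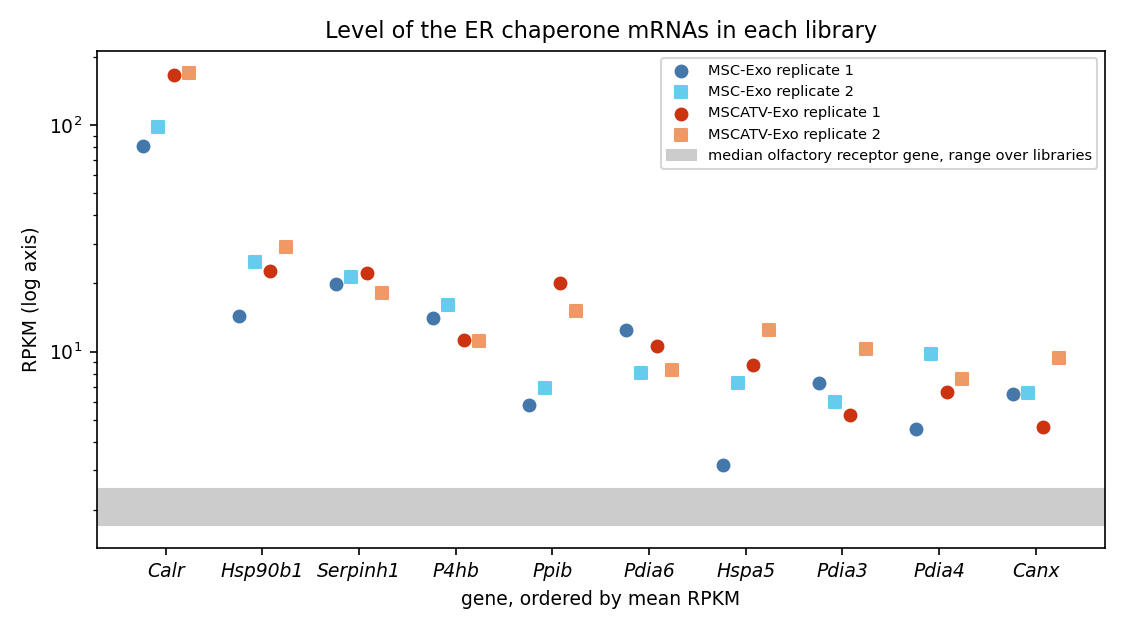
Level of each of the 10 mRNAs in RPKM (log axis) in the 4 libraries, 1 point per library, with genes ordered by mean level and a grey band for the olfactory receptor median (1.71 to 2.47 RPKM). Calr lies between 81.0 and 169.5 RPKM, and Hspa5 comes closest to the band, at 3.14 RPKM in MSC-Exo replicate 1.

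Of the lectin chaperones, Calr was higher in both MSCATV-Exo libraries, while the groups overlapped for Canx. Calr, the soluble calcium-binding lectin (rat chr19:25956771-25961666, minus strand, build rn6), had 808 and 985 counts in MSC-Exo, against 1853 and 1770 in MSCATV-Exo. Both MSCATV-Exo libraries lay above both MSC-Exo libraries, and the replicates differed by 1.22 times in MSC-Exo and 1.01 times in MSCATV-Exo. On counts scaled to a common library size (normalised CPM) the difference was 2.01-fold. Calnexin (Canx, chr10:35800942-35833939, minus strand) had 178 and 179 counts in MSC-Exo, against 141 and 267 in MSCATV-Exo. Its groups overlapped, and its MSCATV-Exo libraries stood on either side of the MSC-Exo pair. Its log2 fold change, MSCATV-Exo over MSC-Exo, was 0.18 ± 0.37 (SE of the edgeR fit, 2 libraries against 2), and it was -0.32 without MSCATV-Exo replicate 2. The ratio of Calr to Canx in RPKM was 12.4 and 15.1 in MSC-Exo, against 36.0 and 18.2 in MSCATV-Exo. This ratio does not depend on library scaling, and the wider spread in MSCATV-Exo came with the spread of Canx.

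The general chaperones were both higher in MSCATV-Exo, with a wider spread between replicates than Calr. Hspa5 (chr3:13838304-13842763, plus strand), the ATP-driven chaperone that also restrains the sensors of the unfolded protein response, had 43 and 100 counts in MSC-Exo, against 133 and 180 in MSCATV-Exo. The groups did not overlap, and the MSC-Exo replicates differed 2.32-fold in RPKM, more than the fitted 2.17-fold difference between the groups. The MSC-Exo level was 3.14 and 7.29 RPKM, of which the first is 1.27 times the olfactory receptor median of its library. Its log2 fold change of 1.12 ± 0.49 (SE) ranged from 0.62 to 1.86 with a library left out. Hsp90b1 (chr7:27226570-27240533, minus strand), the ER form of HSP90, had 215 and 376 counts in MSC-Exo, against 376 and 456 in MSCATV-Exo. In normalised CPM the nearest libraries of the groups, at 68.7 and 68.8, all but touched. In RPKM the groups overlapped, with MSC-Exo replicate 2 (25.0) above MSCATV-Exo replicate 1 (22.6). Its log2 fold change was 0.48 ± 0.32 (SE) and went from 0.12 to 0.96 with a library left out.

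The summed level of the 4 disulfide isomerases was 38.3 and 39.7 RPKM in MSC-Exo, against 33.7 and 37.3 RPKM in MSCATV-Exo. In RPKM both MSCATV-Exo libraries thus lay below both MSC-Exo libraries. In normalised CPM the groups overlapped, at 78.9 and 86.9 against 78.7 and 79.7. P4hb (chr10:109736459-109748070, minus strand), the isomerase shared with prolyl 4-hydroxylase, had 194 and 220 counts in MSC-Exo, against 171 and 160 in MSCATV-Exo. It was the 1 gene of the set whose MSCATV-Exo libraries both lay below MSC-Exo, with a log2 fold change of -0.33 ± 0.32 (SE; -0.43 to -0.22 with a library left out). Pdia3 (ERp57; chr3:113376983-113400707, plus strand), the isomerase that works with calreticulin and calnexin on glycoproteins, had 73 and 60 counts in MSC-Exo, against 59 and 108 in MSCATV-Exo. Pdia4 (ERp72; chr4:77470636-77489535, minus strand) had 57 and 122 against 92 and 99 counts. Pdia6 (P5; chr6:42568269-42585654, plus strand), which is found in complex with Hspa5, had 114 and 74 against 108 and 80 counts. The groups overlapped for these 3 genes, and their log2 fold changes of 0.32 ± 0.54, 0.08 ± 0.51 and -0.00073 ± 0.48 (SE) were smaller than their errors. Each of them turned sign when a single library was left out.

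Of the collagen folding factors, Ppib was higher in both MSCATV-Exo libraries, while the groups overlapped for Serpinh1. Ppib (chr8:71719681-71725538, plus strand) had 26 and 31 counts in MSC-Exo, against 100 and 71 in MSCATV-Exo. Both MSCATV-Exo libraries lay above both MSC-Exo libraries, and its log2 fold change of 1.58 ± 0.63 (SE; 1.29 to 1.82 with a library left out) was the highest of the 10. The level was 5.80 and 6.91 RPKM in MSC-Exo, against 20.1 and 15.1 RPKM in MSCATV-Exo. In multiples of the olfactory receptor median, itself lower in MSCATV-Exo, it was 2.35 and 2.93 against 11.8 and 6.65. Serpinh1 (chr1:164301010-164308306, minus strand) had 217 and 234 counts in MSC-Exo, against 271 and 207 in MSCATV-Exo, with overlapping groups and a log2 fold change of 0.08 ± 0.31 (SE). It was -0.03 with total counts in place of the scaling factors. Within each library, Ppib stood at 0.292 and 0.323 of the Serpinh1 RPKM in MSC-Exo and at 0.899 and 0.835 in MSCATV-Exo, a ratio formed after the values were seen.

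Across the 10 genes, the fitted log2 fold change was above 0 for 8 and below 0 for 2, with a median of 0.25. Over all 33480 genes tested it was above 0 for 49.4%, with a median of -0.01. Among 347 protein-coding genes with a mean of at least 20 RPKM, a class that holds Calr, Hsp90b1 and Serpinh1, it was above 0 for 75.5%, with a median of 0.24. With total counts and no scaling factor, 6 of the 10 were above 0, and the median of all genes moved from -0.01 to -0.11. Separate groups were found in 5 of the 10, 4 higher (Calr, Hspa5, Ppib and, by the margin given above, Hsp90b1) and 1 lower (P4hb) in MSCATV-Exo. Of all genes tested, 33.5% had groups that did not overlap, 16.1% on the higher and 17.4% on the lower side, and of the 347 abundant genes 42.4% were separate on the higher side. None of the 10 was called by edgeR's quasi-likelihood test at a Benjamini-Hochberg adjusted p under 0.05, where 0 of the 33480 genes were (0%). At an unadjusted p under 0.05 there were 3 of the 10 (Calr, Ppib and Hspa5), against 1236 of all genes (3.69%). DESeq2 on the same counts called 1 of the 10, Calr (adjusted p = 1.12e-06), among 106 of all genes (0.317%), 51 of them higher in MSCATV-Exo (0.152%). Over the other fits the adjusted p of Calr went from 0.0218 to 1.00, and edgeR called it without MSCATV-Exo replicate 2, a fit that called 168 genes (0.472%). None of the 10 was called without MSC-Exo replicate 1 (0.00281% of genes called), MSC-Exo replicate 2 (0.00560%) or MSCATV-Exo replicate 1 (0.0753%), or with the replicate number as a block (0.0119%). Since these values chose the set, nothing is read from how the counts compare with all genes.

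**Figure D2:**
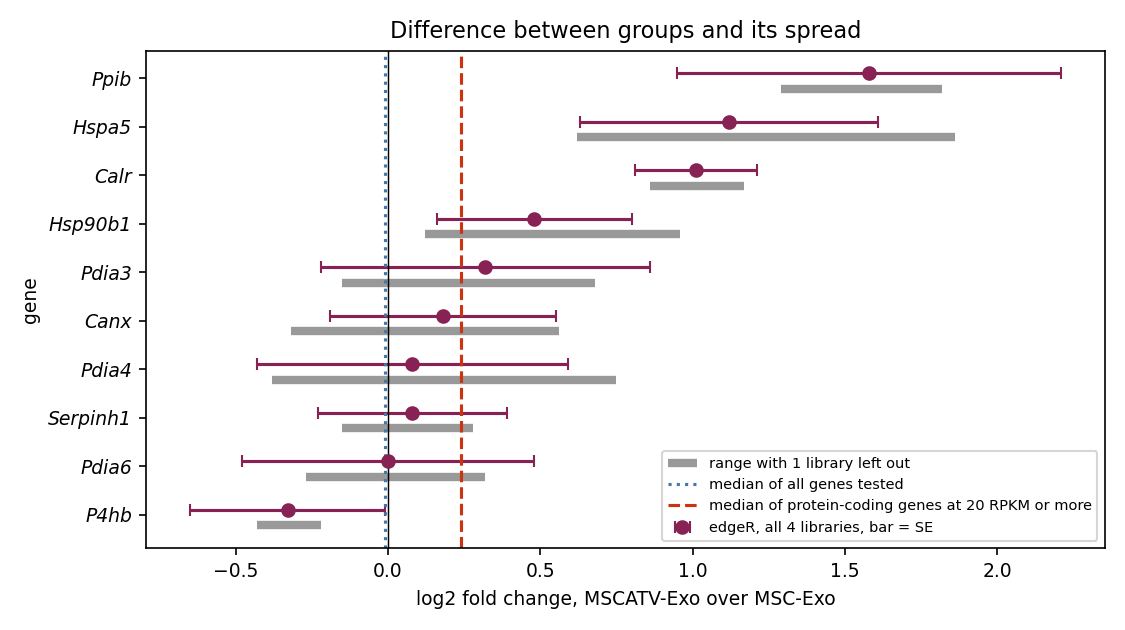
Log2 fold change of each gene, MSCATV-Exo over MSC-Exo, with the SE of the edgeR fit as bars and the range with 1 library left out in grey; dotted and dashed lines mark the medians of all genes tested (-0.01) and of abundant protein-coding genes (0.24). Ppib, Hspa5 and Calr stand at 1.58, 1.12 and 1.01 and keep their sign with any library left out, and Calr has the smallest SE (0.20).

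The authors' deposited table gives Calr a log2 ratio of 0.91 with p and q listed as 0, and Ppib a log2 ratio of 1.47 (q = 7.55e-06). Among the 10 genes, the authors' deposited table lists 5 that have a q under 0.05, 4 higher (Calr, Ppib, Hspa5 and Hsp90b1) and 1 lower (P4hb). A q under 0.05 is listed there for 34.3% of the 38021 genes it lists, 12.4% higher and 21.9% lower. The test behind these values is not stated in the sources used here.

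Summed over the 10 genes, the level was 169 and 206 RPKM in MSC-Exo, against 279 and 291 RPKM in MSCATV-Exo. Calr alone made up 47.9% and 48.0% of that sum in MSC-Exo, against 59.9% and 58.3% in MSCATV-Exo. Without Calr the sum was 88.0 and 107 RPKM against 112 and 121 RPKM, so the groups stayed separate by a gap smaller than the difference between the MSC-Exo replicates. In normalised CPM the whole set averaged 391 ± 62.3 in MSC-Exo, against 605 ± 0.830 in MSCATV-Exo (SD, n = 2 each). With 2 libraries against 2 an exact test cannot reach the threshold, and none was made. Calr was 11.2 and 12.3 times the median of the other 9 genes in RPKM in MSC-Exo, and 15.8 and 15.3 times that median in MSCATV-Exo.

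**Figure D3:**
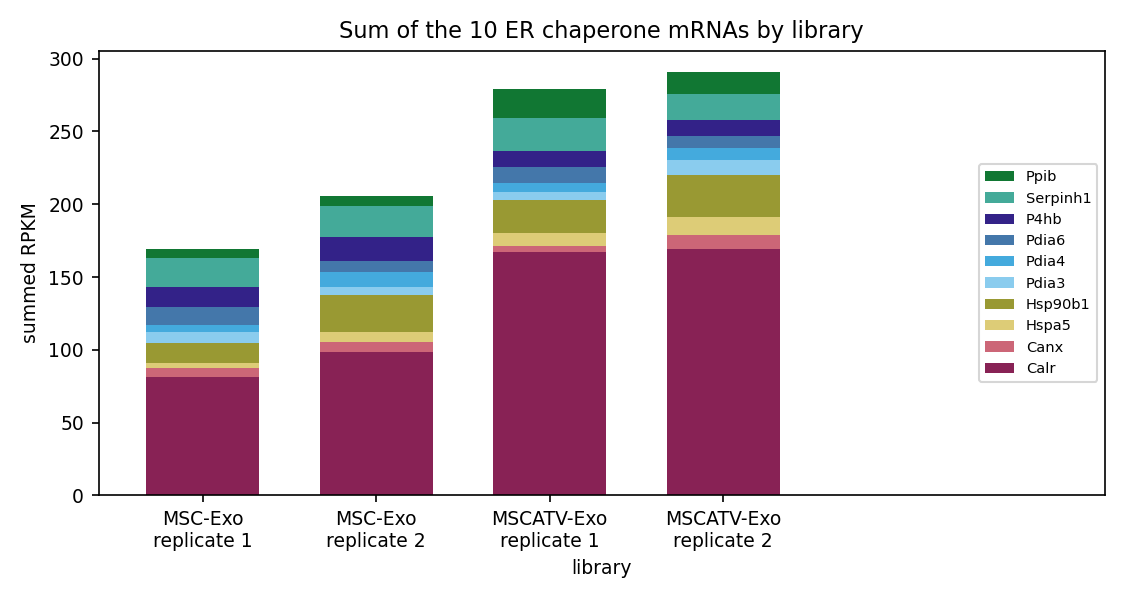
Summed RPKM of the 10 mRNAs in each library, stacked by gene, on an axis from 0. The sum goes from 169 and 206 RPKM in MSC-Exo to 279 and 291 in MSCATV-Exo, and Calr at the base of each bar makes up 47.9% to 59.9% of it.

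Set beside the promoters, the 5 genes whose mouse promoter holds the ER stress response element had log2 fold changes of 1.01 (Calr), 1.12 (Hspa5), 0.48 (Hsp90b1), 0.18 (Canx) and -0.00073 (Pdia6). The 5 genes without a match ran from -0.33 (P4hb) to 1.58 (Ppib). The ranges overlapped.

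Of the 135 tested genes in 7 lists of the wider ER folding pathway, 85 were above 0 and 50 below, with a median log2 fold change of 0.12, against -0.01 for all genes tested and 0.24 for the abundant protein-coding genes. The groups were separate on the higher side for 24 of the 135 and on the lower side for 16. Of all genes tested, 16.1% were separate on the higher and 17.4% on the lower side. ER chaperones and co-chaperones other than the 10 had 12 of 19 tested genes above 0 and 7 below (median log2 fold change 0.10). The most abundant were Manf, a secreted ER stress protein (87, 46, 84 and 39 counts in MSC-Exo 1 and 2 and MSCATV-Exo 1 and 2), and Fkbp2, an ER prolyl isomerase (70, 48, 100 and 56 counts). Neither separated the groups. Other oxidoreductases of the thioredoxin fold had 10 of 16 above 0 (median 0.07), with Erp29 at 0.12 ± 0.77 and Qsox1 at 0.02 ± 0.39 (log2 fold change, SE). Their median was -0.05 with total counts, -0.16 without replicate 2 of either group and -0.10 without MSCATV-Exo replicate 1. Genes of collagen folding and modification had 14 of 20 above 0 (median 0.22). Among them Plod3, a lysyl hydroxylase, had 125 and 112 counts against 179 and 174 (0.57 ± 0.36), and Crtap, which works with prolyl 3-hydroxylase and Ppib, had 74 and 57 against 140 and 47 (0.52 ± 0.60). The 2 MSCATV-Exo libraries of Crtap fell on either side of the MSC-Exo pair.

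The sugar-reading cycle that calreticulin belongs to, taken with ER-associated degradation, split 12 above 0 and 10 below of 22 genes (median 0.07, but -0.04 with total counts and -0.01 without MSCATV-Exo replicate 1). Its most abundant genes differed in sign, with the ubiquitin ligase Syvn1 at 0.55 ± 0.37 and Prkcsh, the glucosidase II beta subunit that trims the sugars calreticulin reads, at -0.48 ± 0.47. The translocon, signal peptidase and oligosaccharyl transferase list had 15 of 22 above 0 (median 0.21), and its most abundant genes Sec61b (33, 78, 126 and 36 counts in the same order) and Sec61g (41, 47, 34 and 55 counts) overlapped between groups. Retrieval receptors and ER calcium proteins had 15 of 19 above 0 (median 0.13, but -0.03 without MSCATV-Exo replicate 2), with the calcium binders Calu at 0.25 ± 0.35 and Rcn3 at -0.38 ± 0.48. Sensors and effectors of the unfolded protein response were the 1 list with more genes below 0 (10 of 17) than above, with a median of -0.24, which turned to 0.10 without MSC-Exo replicate 2. Within it Atf4, the transcription factor of the PERK branch, had 99 and 90 counts in MSC-Exo, against 197 and 163 in MSCATV-Exo, with separate groups (0.93 ± 0.38). Creb3l1, a membrane-bound factor that drives collagen genes, had 125 and 116 against 164 and 140 counts (0.33 ± 0.37). Of the 135 genes, DESeq2 called 0 (0.317% of all genes), edgeR called 0 (as of all genes), and 2 had an unadjusted edgeR p under 0.05 (1.48%, against 3.69% of all genes).

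**Figure D4:**
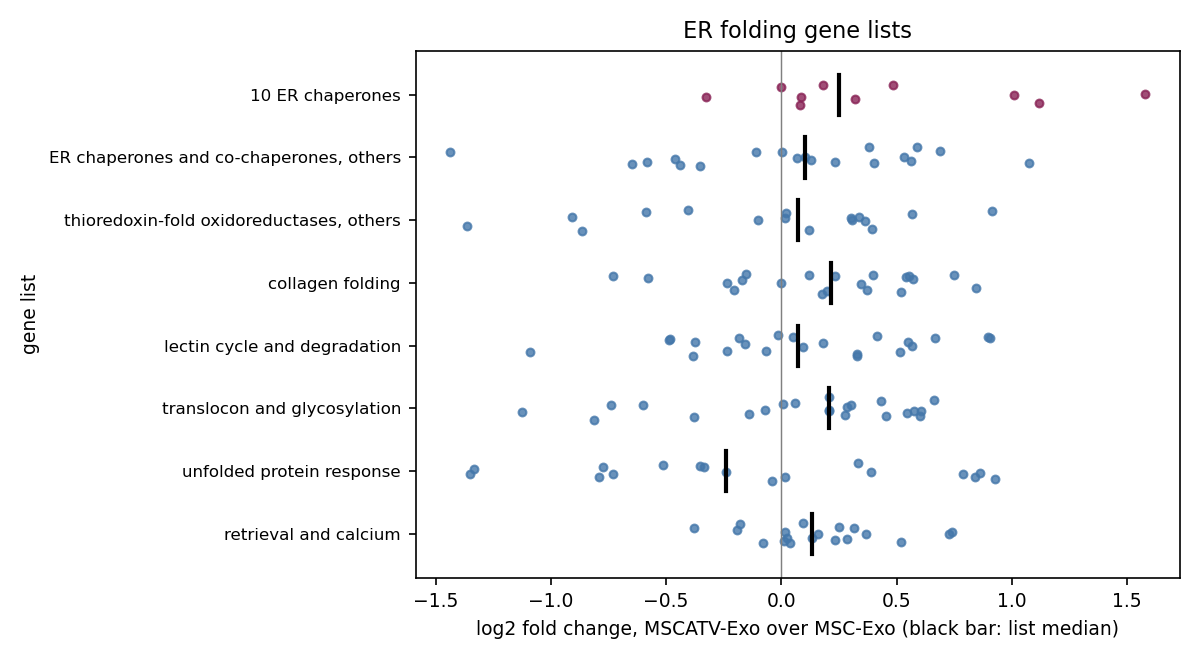
Log2 fold change, MSCATV-Exo over MSC-Exo, of every tested gene in the 10-gene set (top) and 7 lists of the ER folding pathway, 1 point per gene (vertical scatter within a row has no meaning), with black bars for list medians. The medians run from -0.24 (unfolded protein response) to 0.25 (the 10 genes), and each list has genes on both sides of 0.

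The genes with a mean of at least 20 RPKM whose pattern over the 4 libraries lay nearest to that of Calr were Rpl23 and Rps10, ribosomal protein genes, RT1-N2, a class Ib histocompatibility gene, Ik, a splicing factor gene, and Hsp90ab1, a cytosolic HSP90. Likeness was the Euclidean distance in log2 normalised CPM, centred per gene, and the 5 lay at 0.208 to 0.317, against a median of 1.04 over 601 candidates. Of the other 9 chaperones, Ppib (0.611) and Hsp90b1 (0.651) lay nearest to Calr and P4hb (1.34) lay farthest. The 5 were picked as the nearest, so their place below the median follows from the choice. Of the 9 chaperones only Hsp90b1 and Serpinh1 reach 20 RPKM, so the others are compared at lower levels than the candidates. With 4 libraries these distances are a description of values.

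Reads could in part be shared with copies. LOC100362318, a pseudogene described as similar to Pdia4, had 52 and 69 counts in MSC-Exo, against 33 and 50 in MSCATV-Exo. In RPKM it stood above Pdia4 in both MSC-Exo libraries (7.65 and 10.1, against 4.57 and 9.78 for Pdia4). It stood below Pdia4 in both MSCATV-Exo libraries (4.37 and 7.03, against 6.64 and 7.59). LOC685171, described as similar to Pdia6, had 4, 17, 33 and 14 counts. How reads that match both were assigned is not given in the sources used here, so the Pdia4 and Pdia6 values are uncertain to that extent. None of the 18408 rows of the non-coding table carried the symbol of any of the 10 genes.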

How the data were processed

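Per the submitters' processing notes, reads were processed with TopHat2 on the rat build, named rn6 and Rnor_6.0; versions, counter and annotation release are not given in the sources used here. The authors deposited whole-number read counts and RPKM per gene. Recomputed from counts and lengths, RPKM rest on each library's gene count total. The authors' deposited comparison gives mean RPKM, a log2 ratio, a p-value and a q-value. The library kit named in the labels does not mark strand, so antisense reads are not separated.

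The count test was edgeR's quasi-likelihood test (version 4.0.16, R 4.3.3), two-sided, on the 33480 genes kept by filterByExpr and scaled with TMM; a call is a p under 0.05 after Benjamini-Hochberg adjustment; the common biological coefficient of variation was 0.559. All 10 genes passed the filter. The test was checked on simulated data for recovered fold sizes and for false calls. The share of true changes that it calls was not part of what had to pass. As alternatives, each library was left out, the scaling was by RLE or by total counts, the filter was dropped or set to 1 CPM on average, the replicate number was a block, and the tool was DESeq2 1.42.0 or limma 3.58.1 on log2(RPKM + 1) and log2(RPKM + 0.1) at a mean RPKM of at least 1. A count of 0 allows up to 3 counts (0.504 to 0.561 CPM, counting error only). The genes and lists were chosen with earlier results of these data known. Besides the 10, the text names the 2 most abundant tested genes of each list, any called by edgeR, the 5 nearest to Calr, and the copies of a member. Older symbols in the lists that the table lacks were not replaced.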

Additional observations from a re-analysis of the deposited data

How the results depend on the processing

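Directions and calls rest on 2 libraries a group. With a library left out, edgeR called 1 to 168 genes and 0 to 1 of the 10 chaperones (Calr, without MSCATV-Exo replicate 2). Over all libraries DESeq2 called 106 genes and 1 of the 10, edgeR with no filter on low counts 8 and 0, and edgeR with the replicate block 4 and 0. The labels give no meaning to the shared replicate numbers, and the deviations of same-numbered libraries had a correlation of -0.01 over 16185 genes, so the block is no pairing; under it no chaperone changed its call. Calr, Hspa5, Hsp90b1 and Ppib stayed above 0 and P4hb below 0 in all 12 alternatives.

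The other 5 changed sign in at least 1. With a library left out Canx ranged from -0.32 to 0.56, Pdia3 from -0.15 to 0.68, Pdia4 from -0.38 to 0.75, Pdia6 from -0.27 to 0.32 and Serpinh1 from -0.15 to 0.28. Pdia4 was -0.01 and Serpinh1 -0.03 with total counts, Serpinh1 was -0.03 and -0.04 with limma on log2(RPKM + 1) and log2(RPKM + 0.1), and Pdia6 was 0.0029 with DESeq2, 0.0031 with RLE factors and 0.01 with the replicate block. Total counts lowered the median of all genes by 0.10, and the cause of the other changes was not tested.

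List medians with a library left out ran from 0.24 to 0.58 for the 10 chaperones, 0.0036 to 0.24 for the other chaperones, -0.16 to 0.13 for oxidoreductases, 0.20 to 0.34 for collagen folding, -0.01 to 0.27 for the lectin cycle and degradation, 0.06 to 0.37 for the translocon list, -0.22 to 0.10 for the unfolded protein response and -0.03 to 0.39 for retrieval and calcium. With total counts the medians were 0.03 (other chaperones), -0.05 (oxidoreductases), 0.12 (collagen folding) and -0.04 (lectin cycle), and with the replicate block 0.04 (other chaperones) and 0.29 (collagen folding). The ratio of the summed level, 1.55, ranged from 1.38 to 1.75 with a library left out.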

Other observations

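Relatives of calreticulin and calnexin, picked after their values were seen, stood near the level of olfactory receptor genes. Clgn (calmegin), the calnexin relative of the male germ line, took 76, 50, 78 and 105 counts in MSC-Exo 1 and 2 and MSCATV-Exo 1 and 2, or 0.922 to 1.92 times the olfactory median in RPKM. Calr3, the calreticulin relative of the male germ line, was at 1.48 to 3.25 times that median. Calr4 was at 0.596 to 2.50 times, with 41 and 54 counts for the MSC-Exo pair and 22 and 13 for the other (log2 fold change -1.44 ± 0.89, SE). Canx, at 2.64 to 4.10 times, stood above Clgn and overlapped Calr3.

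Genes that textbook accounts place with Hspa5 in the unfolded protein response or beside it in the ER, also picked after their values were seen, had no common direction. Ddit3 (CHOP) took 41 and 74 counts for the MSC-Exo pair and 30 and 15 for the other (log2 fold change -1.35 ± 0.81, SE), and Herpud1 took 65, 60, 39 and 58 counts (-0.37 ± 0.62), both with separate groups. Xbp1 took 64, 16, 84 and 59 counts (0.84 ± 0.75), with overlapping groups. Hyou1, an ER chaperone that acts with Hspa5, took 191, 261, 232 and 223 counts, also overlapping, as did Dnajb11 (57, 92, 28 and 134) and Sdf2l1 (99, 43, 27 and 64). The KDEL receptors, which return Calr, Hspa5 and Hsp90b1 to the ER, overlapped between groups, with Kdelr1 at 0.04 ± 0.61, Kdelr2 at 0.01 ± 0.74 and Kdelr3 at 0.29 ± 0.83. None of these genes passed the edgeR or DESeq2 threshold.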
